A study of Mus musculus with 15 samples.

Results

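Oxidative phosphorylation subunit genes encode the protein complexes of the inner mitochondrial membrane that pass electrons to oxygen and make ATP. They were chosen by symbol, as the genes whose single annotated symbol begins with Nduf, Uqcr, Cox4 to Cox8 or Atp5, or is Sdha, Sdhb, Sdhc, Sdhd or Cycs. This gave 91 of the 18194 genes that the array annotation names by a single symbol, and 84 of the 91 had enough signal to be tested. A gene is represented by whichever of its probe sets averaged highest on the 15 arrays. The symbol rule also takes in the complex I assembly factors (Ndufaf) and Cox7a2l, which are not subunits, and these are described apart.

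Each array holds RNA scraped from the colon lining of 1 male C57BL/6 mouse aged 11 weeks. In the heme group 9 mice ate for 14 days a diet rich in fat (40% of energy) and poor in calcium, to which heme had been added at 0.5 umol per g. In the control group 6 mice ate that fat-rich, calcium-poor diet without heme for the same time, and control replicate 5 was not analysed here. Heme is an iron-holding porphyrin, abundant in red meat. Both groups were thus fed much fat and little calcium, and no group on a low-fat or calcium-rich diet was analysed here.

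In the respiratory chain, complex I takes electrons from NADH and complex II from succinate, and both hand them to ubiquinone. Complex III moves them on to cytochrome c and complex IV to oxygen, while ATP synthase uses the proton gradient that complexes I, III and IV build. Colonocytes are known for burning butyrate from bacterial fermentation in their mitochondria, so the chain is prominent in this epithelium.

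Values are log2 expression, with the floor of detection set at a signal of 20, which is 4.32 in log2 units. An array had between 9066 and 9319 genes over this floor, and the 9257 genes that passed it on 6 or more arrays were tested. Under the floor on all arrays lay 0 of 7 epithelial, 0 of 8 absorptive colonocyte and also 0 of 7 stromal markers, so this count does not tell tissues apart. The log2 of the summed epithelial signal ran from 16.12 to 16.26 in heme mice and from 16.15 to 16.21 in controls. For the stromal markers it ran from 9.68 to 11.20 in heme mice and from 9.13 to 13.01 in controls. Of the controls, mouse 2 had the highest mean of the smooth muscle markers (9.45, against 5.86 to 7.34 in the other controls). Mouse 4 was the lowest control on those markers and on the summed level of the distal Hox genes. The log2 of that summed Hox signal ran from 10.75 to 11.66 in heme mice and from 6.54 to 12.19 in controls. Control mouse 4, at the low end, thus lay far below every heme mouse on it, and the part of this in the members' values was not tested. Control mouse 4 was also the highest control in 49 of the 84 tested members, and heme mouse 6 the lowest heme mouse in 31. On the other side, control mouse 7 was the lowest control in 34 and control mouse 2 in 27, and heme mouse 8 the highest heme mouse in 24. A scraping mixes cell types, so fewer cells of a type and less RNA per cell cannot be told apart. Changes are given in log2 units as heme minus control, with the standard error, and a gene was called at a limma adjusted p under 0.05 over all tested genes.

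Most members were modestly higher in the heme mice. Of the 84 tested members 56 were called higher (66.7%), 2 were called lower and 26 were not called. Over all 9257 tested genes 27.2% were called higher and 26.4% lower, 53.6% in either direction. The median change was 0.19 over the members and -0.01 over all tested genes, and 73 of the 84 members lay above 0. The changes were small, from -0.36 for Cox7a2l to 0.85 for Ndufaf4, and only 6 members were called higher by at least 0.5, where 10.1% of all tested genes were. In 19 members every heme mouse lay above every control and in 2 every heme mouse lay below, against 11.2% and 8.93% of all tested genes. The counts by complex and by list given further on are to be read beside these shares over all tested genes. The calls of 7 members (Ndufa2, Ndufaf1, Ndufaf8, Cox6b1, Atp5a1, Atp5mpl and Atp5o) were lost when some single mouse was left out. With a smooth muscle score as a covariate, 21 of the 84 members were called higher (25%), against 19.1% of all tested genes in that fit.

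**Figure D1:**
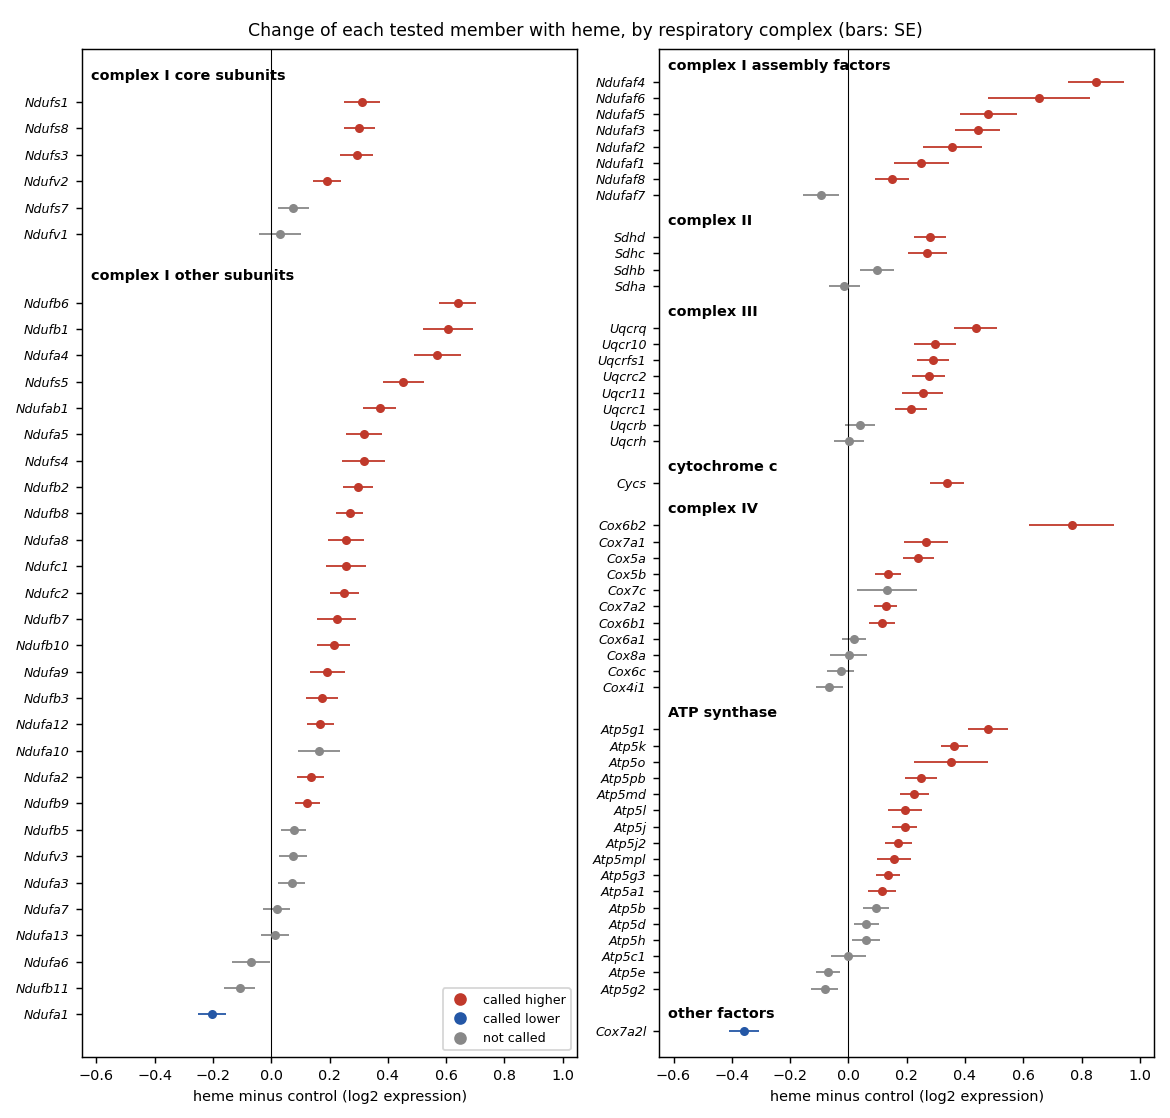
Each point is 1 tested member, with its heme minus control difference on the log2 scale on the horizontal axis, its standard error as a bar, and the members grouped by respiratory complex down the page. Of the 84 members, 56 were called higher (red), 2 lower (blue) and 26 were not called (grey). Most points lie to the right of 0, with Ndufaf4 farthest right and Cox7a2l farthest left.

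The mean over the 84 members was 11.80 ± 0.05 in heme mice and 11.60 ± 0.07 in controls (SD, n = 9 and 6). It ran from 11.71 to 11.85 in heme mice and from 11.53 to 11.70 in controls, so that the groups did not overlap, although heme mouse 6 and control mouse 4 nearly met. The class means of complex I subunits other than the core, complex I assembly factors and complex IV did not overlap between the groups either. For complex II, 1 of 9 heme mice lay above all controls, with a mean of 12.05 ± 0.06 in heme mice and 11.89 ± 0.12 in controls.

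**Figure D2:**
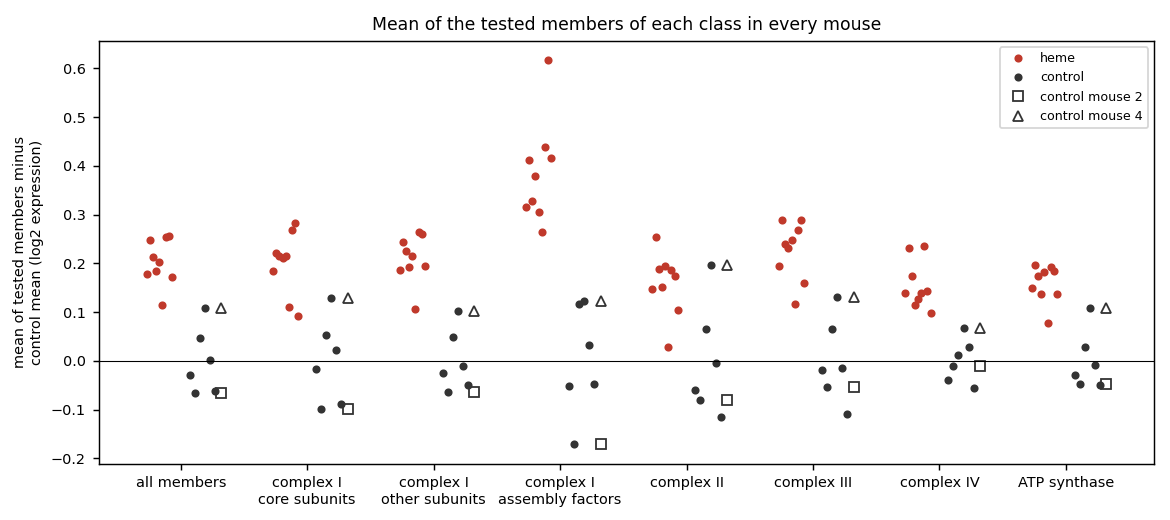
Each point is 1 mouse, and the vertical axis gives the mean of the tested members of a class minus the control mean of that class (log2 expression), with heme mice to the left of controls. Open symbols mark control mice 2 and 4. All heme mice lie above 0 in each of the classes drawn, which leave out the single genes Cycs and Cox7a2l, and control mouse 4 is the highest control in each of them.

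The promoters of 6 members were set side by side. Ndufaf4, Cycs and Atp5k were picked as members called higher whose promoters hold the NRF1 letters GCATGCGC. Ndufb6 was picked as the complex I subunit with the largest called rise, and Ndufa1 and Cox7a2l as the members called lower. The RefSeq sequences are from GRCm38.p6, run from 250 bases before to 50 after the start of the gene, and are written 5′ to 3′ on the strand of the gene. Capitals mark matches on either strand to the NRF1 letters GCATGCGC or the SP1 letters GGGCGG, and the ETS letters CCGGAAGT, ERR letters TCAAGGTCA and YY1 letters AAGATGGCG were searched in the same way. The windows lie at chr4:24897833-24898132 on the plus strand for Ndufaf4, and on the minus strand at chr6:50566520-50566819 for Cycs, chr5:108434350-108434649 for Atp5k, chr4:40279372-40279671 for Ndufb6, chrX:37191189-37191488 for Ndufa1 and chr17:83514284-83514583 for Cox7a2l.
Ndufaf4: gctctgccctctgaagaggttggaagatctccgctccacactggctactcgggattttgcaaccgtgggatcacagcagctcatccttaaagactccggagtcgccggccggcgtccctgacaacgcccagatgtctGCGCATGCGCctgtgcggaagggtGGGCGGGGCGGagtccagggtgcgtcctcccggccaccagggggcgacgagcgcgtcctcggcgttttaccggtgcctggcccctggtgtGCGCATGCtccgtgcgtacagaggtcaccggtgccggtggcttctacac
Cycs: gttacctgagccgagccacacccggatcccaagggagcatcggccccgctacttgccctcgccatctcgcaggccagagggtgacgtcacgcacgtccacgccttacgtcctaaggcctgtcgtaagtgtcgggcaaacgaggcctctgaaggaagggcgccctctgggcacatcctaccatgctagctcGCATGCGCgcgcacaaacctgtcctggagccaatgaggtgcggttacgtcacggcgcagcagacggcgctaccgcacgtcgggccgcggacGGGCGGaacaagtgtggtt
Atp5k: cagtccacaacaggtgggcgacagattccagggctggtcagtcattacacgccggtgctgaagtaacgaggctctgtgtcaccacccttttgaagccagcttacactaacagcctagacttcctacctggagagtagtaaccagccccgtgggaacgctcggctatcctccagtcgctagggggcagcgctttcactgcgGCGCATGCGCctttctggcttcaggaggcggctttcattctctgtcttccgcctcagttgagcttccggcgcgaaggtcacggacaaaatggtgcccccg
Ndufb6: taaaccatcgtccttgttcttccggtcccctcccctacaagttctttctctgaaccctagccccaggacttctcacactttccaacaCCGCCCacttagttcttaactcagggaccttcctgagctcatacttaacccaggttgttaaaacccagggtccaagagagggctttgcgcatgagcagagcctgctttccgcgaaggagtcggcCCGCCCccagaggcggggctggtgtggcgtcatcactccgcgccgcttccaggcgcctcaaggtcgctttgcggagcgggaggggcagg
Ndufa1: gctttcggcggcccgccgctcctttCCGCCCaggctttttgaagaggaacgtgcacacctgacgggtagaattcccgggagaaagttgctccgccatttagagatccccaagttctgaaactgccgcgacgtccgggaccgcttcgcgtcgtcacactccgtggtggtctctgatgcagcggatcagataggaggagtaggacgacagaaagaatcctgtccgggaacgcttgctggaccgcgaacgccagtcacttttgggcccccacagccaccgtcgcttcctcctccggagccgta
Cox7a2l: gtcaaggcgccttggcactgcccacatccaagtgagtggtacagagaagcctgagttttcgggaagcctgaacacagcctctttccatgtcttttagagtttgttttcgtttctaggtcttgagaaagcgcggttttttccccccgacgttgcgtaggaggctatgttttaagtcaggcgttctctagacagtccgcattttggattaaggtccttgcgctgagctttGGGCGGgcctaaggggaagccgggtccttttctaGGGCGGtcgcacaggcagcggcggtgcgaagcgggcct

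NRF1 is a transcription factor known for binding the promoters of many respiratory chain genes, and its letters begin 60 bases before the start in Cycs. In Ndufaf4 and Atp5k the NRF1 letters were found on both strands in overlapping positions, at 113 and 111 bases before the start of Ndufaf4 and at 50 and 48 before that of Atp5k. Ndufaf4 also held them at the start itself. The printed windows of Ndufb6, Ndufa1 and Cox7a2l held SP1 letters and none of the NRF1 letters, which says nothing about the factor beyond these windows. Since Ndufaf4, Cycs and Atp5k were picked for holding the NRF1 letters, the printed windows cannot show whether the letters go with a rise. Over the 75 members with a promoter in the table, 12 held the NRF1 letters (16%), against 3.94% of 17492 protein-coding genes. Of those 12, 8 were called higher and 4 were not called (Atp5g2, Cox6a1, Ndufa6 and Sdhb). Over all 84 tested members 56 were called higher (66.7%), a share close to that of the 12. The YY1 letters were found in 7 members (9.33%, against 2.14%) and the ERR letters in 2, Atp5g3 and Sdhd (2.67%, against 0.377%). The ETS letters were found in 5 (6.67%, against 5.69%) and the SP1 letters in 36 (48%, against 49.2%). A match is a description of the letters and not evidence of a bound site.

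Complex I core subunits, the parts that hold the flavin and the iron-sulfur clusters, were called higher in 4 of 6 tested, with a median change of 0.24. Ndufs1, which carries several of the iron-sulfur clusters, ranged from 11.06 to 11.36 with a median of 11.26 in heme mice, against 10.75 to 11.13 with a median of 10.94 in controls. Of the heme mice 8 of 9 lay above all controls, and heme mouse 6 was the exception. Ndufs1 was higher by 0.31 ± 0.06 (1.24-fold, limma adjusted p = 0.000619). Ndufs8, an iron-sulfur subunit next to the quinone site, ranged from 13.06 to 13.23 with a median of 13.21 in heme mice, against 12.73 to 13.02 with a median of 12.88 in controls. The groups did not overlap, and Ndufs8 was higher by 0.30 ± 0.05 (1.23-fold, limma adjusted p = 0.000204). Ndufs3 and Ndufv2 were also called higher, by 0.29 and 0.19. The subunit that binds NADH and the flavin, Ndufv1, was at 0.03 ± 0.07 (95% confidence interval -0.13 to 0.19) and was not called. Ndufs7, which holds the cluster that passes electrons to ubiquinone, was at 0.08 ± 0.05 (-0.04 to 0.19) and was not called either.

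Of the other Nduf subunits, which surround the core and help to hold it together, 19 of 28 tested were called higher and 1 lower, with a median change of 0.20. In 8 of the 28 every heme mouse lay above every control. Ndufb6, a subunit of the membrane arm, ranged from 12.66 to 13.00 with a median of 12.89 in heme mice, against 12.10 to 12.36 with a median of 12.24 in controls. The groups were separate by a wide margin, and even heme mouse 6, the lowest, stood above control mouse 4, the highest. Ndufb6 was higher by 0.64 ± 0.06 (1.56-fold, limma adjusted p = 1.3e-06). Ndufb1, another membrane-arm subunit, ranged from 4.54 to 5.08 with a median of 4.90 in heme mice, against 4.02 to 4.46 with a median of 4.35 in controls. The groups did not overlap, but these values lie at the floor, which 9 of 9 heme mice and 4 of 6 controls passed. Its difference of 0.61 ± 0.09 (limma adjusted p = 3.22e-05) is therefore uncertain in size.

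Ndufa4, counted here by its symbol although it is held to be a subunit of complex IV, was higher by 0.57 ± 0.08 with no overlap between the groups. Ndufs5 was higher by 0.45, and Ndufab1, the mitochondrial acyl carrier protein that also serves lipoic acid synthesis, by 0.37. The other 14 called rises in the class ran from 0.12 for Ndufb9 to 0.32 for Ndufa5 and included Ndufs4, a subunit whose loss causes Leigh syndrome. The 8 members not called ran from -0.11 ± 0.05 for Ndufb11 (-0.22 to 0.00) to 0.16 ± 0.07 for Ndufa10 (0.01 to 0.32), with Ndufb5, Ndufv3, Ndufa3, Ndufa7, Ndufa13 and Ndufa6 between them.

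Ndufa1, an X-linked membrane-arm subunit needed for complex I assembly, went the other way. It ranged from 12.81 to 12.99 with a median of 12.93 in heme mice, against 13.01 to 13.20 with a median of 13.09 in controls. All 9 heme mice lay below all 6 controls, though heme mouse 6 and control mouse 4 were close. Ndufa1 was lower by a change of -0.20 ± 0.05 (0.868-fold, limma adjusted p = 0.00195).

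Complex I assembly factors, which build the complex and do not remain in it, had a median change of 0.40, and 7 of 8 were called higher. With the smooth muscle covariate 3 of 8 were called and the median was 0.189, beside 0.191 in complex III, and no test between classes was made. Ndufaf4, which acts early in the assembly of the arm that meets the quinone, ranged from 9.33 to 9.89 with a median of 9.58 in heme mice, against 8.55 to 9.17 with a median of 8.67 in controls. The groups did not overlap, and control mouse 2 stood above the other controls, which reached 8.70. Ndufaf4 was higher by 0.85 ± 0.10 (1.80-fold, limma adjusted p = 4.59e-06). Ndufaf6, another early factor, ranged from 6.88 to 7.74 with a median of 7.37 in heme mice, against 5.86 to 7.28 with a median of 6.79 in controls. Control mouse 4 reached into the heme range, and 6 of 9 heme mice lay above all controls. Ndufaf6 was higher by 0.65 ± 0.17 (1.57-fold, limma adjusted p = 0.00509). Ndufaf5, which hydroxylates Ndufs7, Ndufaf3, the partner of Ndufaf4, and Ndufaf2, which acts late, were higher by 0.48, 0.44 and 0.36. Ndufaf1 and Ndufaf8 were called at 0.25 and 0.15. The methyltransferase Ndufaf7 was at -0.09 ± 0.06 (-0.23 to 0.04) and was not called.

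**Figure D3:**
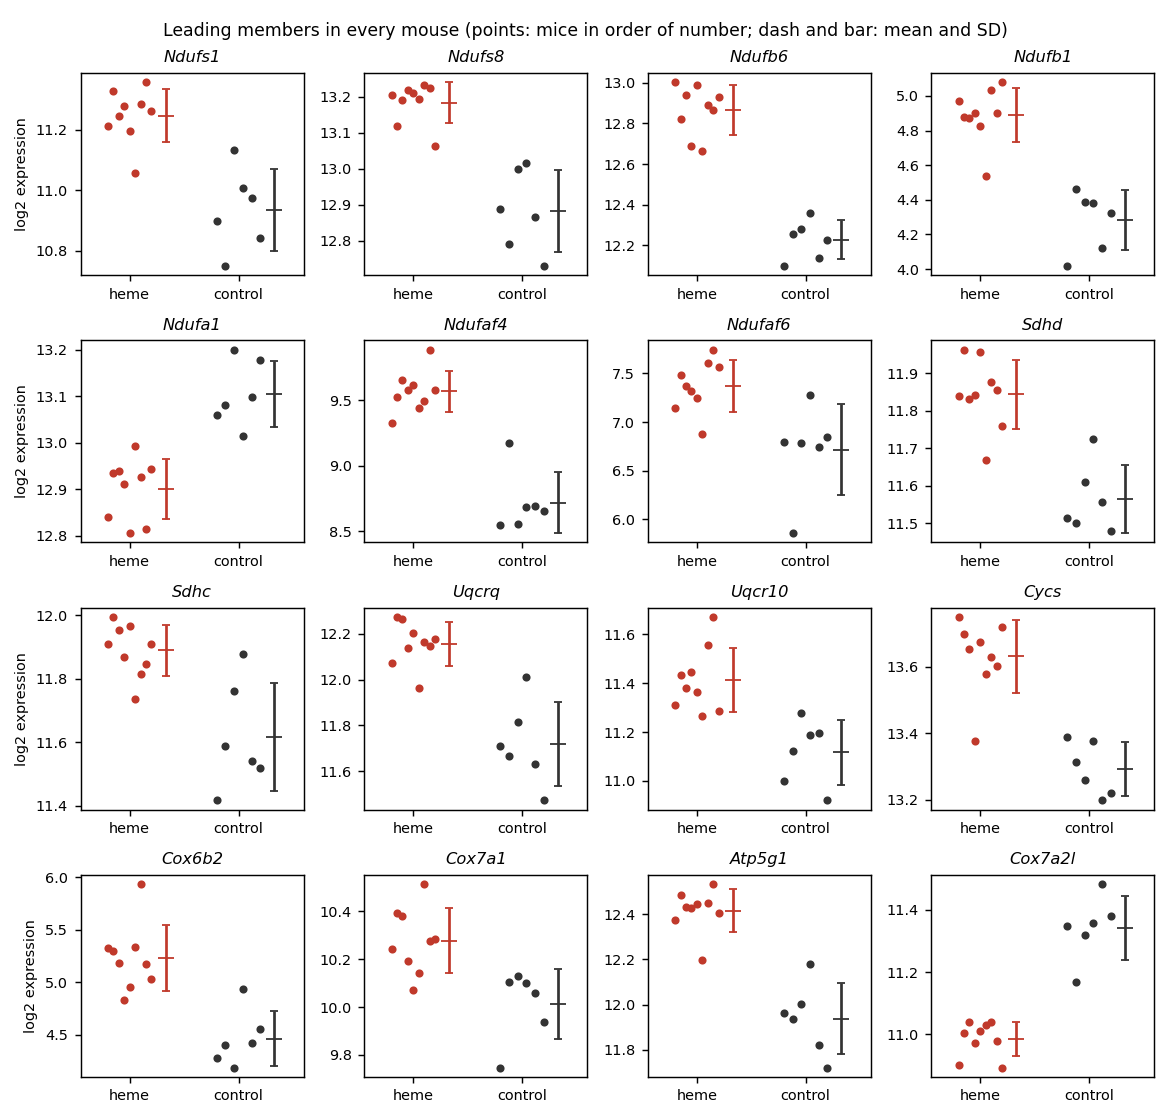
Each panel is 1 member, with a point per mouse on a log2 expression axis, heme to the left of control, and the group mean and SD beside the points. Ndufa1 and Cox7a2l lie lower in all 9 heme mice, whereas Ndufs8, Ndufb6, Ndufb1, Ndufaf4 and Atp5g1 lie higher in all 9. The axes start at different values and the panels cannot be compared in level.

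In complex II both membrane anchors were called higher and both subunits of the soluble part were not. Sdhd, an anchor that helps form the quinone site, ranged from 11.67 to 11.96 with a median of 11.84 in heme mice, against 11.48 to 11.73 with a median of 11.54 in controls. Its partner Sdhc ranged from 11.74 to 11.995 with a median of 11.91 in heme mice, against 11.42 to 11.88 with a median of 11.56 in controls. The groups overlapped in Sdhd through control mouse 4 and in Sdhc through control mice 3 and 4. Sdhd was higher by 0.28 ± 0.06 and Sdhc by 0.27 ± 0.07 (limma adjusted p = 0.000624 and 0.00358). Sdhb, the iron-sulfur subunit, ranged from 12.32 to 12.52 with a median of 12.43 in heme mice, against 12.19 to 12.52 with a median of 12.33 in controls. Sdha, the flavoprotein that oxidises succinate, ranged from 11.94 to 12.13 with a median of 12.02 in heme mice, against 11.90 to 12.21 with a median of 12.06 in controls. In neither did any heme mouse leave the control range. Sdhb was at 0.10 ± 0.06 (-0.02 to 0.22) and Sdha at -0.01 ± 0.05 (-0.13 to 0.10), and neither was called. The difference between anchors and soluble subunits was not tested.

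In complex III 6 of 8 members were called higher, with a median change of 0.27. Uqcrq, a small subunit beside cytochrome b, ranged from 11.96 to 12.27 with a median of 12.16 in heme mice, against 11.47 to 12.01 with a median of 11.69 in controls. Control mouse 4 was the one that reached heme mouse 6. Uqcrq was higher by 0.44 ± 0.07 (1.35-fold, limma adjusted p = 0.000151). Uqcr10, another small subunit, ranged from 11.27 to 11.67 with a median of 11.38 in heme mice, against 10.92 to 11.28 with a median of 11.15 in controls. It was higher by 0.30 ± 0.07 (1.23-fold, limma adjusted p = 0.00292), with 8 of 9 heme mice above all controls. The Rieske iron-sulfur protein Uqcrfs1 and the core proteins Uqcrc2 and Uqcrc1 were higher by 0.29, 0.28 and 0.21, and Uqcr11 by 0.26. Cyc1, the cytochrome c1 of this complex, which the symbol rule leaves out, was higher by 0.28 ± 0.07 (limma adjusted p = 0.00214). Uqcrb was at 0.04 ± 0.05 (-0.07 to 0.15) and the hinge protein Uqcrh at 0.00 ± 0.05 (-0.11 to 0.11), and neither was called.

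Cycs encodes cytochrome c, the soluble carrier between complexes III and IV that also starts apoptosis when it leaks into the cytosol. It ranged from 13.38 to 13.75 with a median of 13.65 in heme mice, against 13.20 to 13.39 with a median of 13.29 in controls. Heme mouse 4 lay within the control range and the other 8 heme mice above it. Cycs was higher by 0.34 ± 0.06 (1.26-fold, limma adjusted p = 0.0002).

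In complex IV 6 of 11 tested members were called higher, with a median change of 0.13. Cox5a, which lies on the matrix face of the enzyme, was higher by 0.24 ± 0.05 with no overlap between the groups. Cox5b, Cox7a2 and Cox6b1 were called with changes of 0.14, 0.13 and 0.12. The general isoform Cox4i1 was at -0.07 ± 0.05 (-0.16 to 0.03) and Cox7c at 0.13 ± 0.10 (-0.09 to 0.35), and they were not called, nor were Cox6a1, Cox8a and Cox6c, which lay between them.

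Complex IV also has isoforms that are largely confined to heart, skeletal muscle, lung or testis. Cox6b2, the testis isoform of Cox6b, ranged from 4.83 to 5.94 with a median of 5.19 in heme mice, against 4.19 to 4.93 with a median of 4.41 in controls. Only 4 of 6 controls passed the floor, so its change of 0.77 ± 0.15 (limma adjusted p = 0.000448) is uncertain in size. Cox7a1, the isoform of heart and skeletal muscle, ranged from 10.07 to 10.51 with a median of 10.28 in heme mice, against 9.75 to 10.13 with a median of 10.08 in controls. It was well over the floor on all 15 arrays and higher by 0.26 ± 0.08 (1.20-fold, limma adjusted p = 0.00805). The isoforms Cox4i2, Cox6a2, Cox7b2, Cox8b and Cox8c and the Ndufa4 relative Ndufa4l2 lay under the floor and were not tested. Of the 11 striated muscle markers 10 were under the floor on all arrays, and the one tested, Acta1, was called lower in heme mice with a change of -1.31 ± 0.23 (limma adjusted p = 0.000254).

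ATP synthase members were called higher in 11 of 17, with a median change of 0.16 and 5 members without overlap. Atp5g1 encodes one of 3 precursors that all give the same c subunit of the rotor. It ranged from 12.20 to 12.53 with a median of 12.43 in heme mice, against 11.72 to 12.18 with a median of 11.95 in controls. Heme mouse 6 and control mouse 4 were next to each other, and the remaining mice were farther apart. Atp5g1 was higher by 0.48 ± 0.07 (1.39-fold, limma adjusted p = 3.51e-05). The other genes for the c subunit were at 0.14 ± 0.04 for Atp5g3, which was called, and -0.08 ± 0.05 for Atp5g2 (-0.18 to 0.02), which was not. Atp5k, the e subunit of the membrane part, ranged from 12.20 to 12.48 with a median of 12.36 in heme mice, against 11.95 to 12.08 with a median of 11.99 in controls. The groups did not overlap, and Atp5k was higher by 0.36 ± 0.05 (1.29-fold, limma adjusted p = 1.67e-05).

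Atp5o, which joins the catalytic head to the stalk, was called at 0.35 ± 0.13, and Atp5pb, the stalk itself, at 0.25. The membrane-part members Atp5md, Atp5l, Atp5j2 and Atp5mpl and the stalk member Atp5j were called with changes of 0.16 to 0.23. In the catalytic head the alpha subunit Atp5a1 was narrowly called at 0.11 ± 0.05 (limma adjusted p = 0.0489). The beta subunit Atp5b was at 0.09 ± 0.05 (-0.00 to 0.19) and was not called (limma adjusted p = 0.0937). These changes are nearly equal, and Atp5a1 kept its call in only 12 of the 27 alternatives described further on. The gamma, delta and epsilon subunits Atp5c1, Atp5d and Atp5e were not called either, with changes of -0.00, 0.06 and -0.07, nor was Atp5h at 0.06.

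Cox7a2l, a factor that links complexes III and IV into supercomplexes and resembles a Cox7a subunit, was the member with the largest fall. The C57BL/6 strain is known to carry a shortened form of its protein. Cox7a2l ranged from 10.89 to 11.04 with a median of 11.00 in heme mice, against 11.17 to 11.48 with a median of 11.35 in controls. All 9 heme mice lay below all controls, and the lowest control was mouse 2. The change was -0.36 ± 0.05 (0.780-fold, limma adjusted p = 3.33e-05), and its 3 tested probe sets were all called lower, with changes of -0.36, -0.36 and -0.42.

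Other probe sets for the same genes gave partly different calls. Of the 47 members with over 1 tested probe set, all probe sets were called higher in 20, all lower in 1 and none in 12. In 12 members some were called higher and others not, and in 2, Sdha and Atp5c1, some were called lower and others not. No member had one probe set higher and another lower. Uqcrb, not called by its main probe set, was at 0.25 ± 0.06 by the other (limma adjusted p = 0.00252), and Cox6c was at 0.21 ± 0.07 by its other (limma adjusted p = 0.0179). In Sdha the probe set called lower read 5.33 ± 0.19 in heme mice and 5.61 ± 0.16 in controls, far under the main probe set at 12.03 in heme mice and 12.04 in controls. Ndufb4 was not tested because its own probe set lay under the floor, yet a probe set it shares with Ndufb4b and Ndufb4c read 11.90 ± 0.05 in heme mice and 11.81 ± 0.09 in controls. Probe sets that may also match other transcripts (suffix _s_at or _x_at) stood for 12 and 7 of the tested members.

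Smooth muscle markers moved with the groups too. All 5 tested markers were called lower in heme mice (Acta2, Actg2, Myh11, Myl9 and Tagln), and Lmod1 and Synpo2 were under the floor on all arrays. The log2 of the summed signal of the 10 markers ran from 8.44 to 9.89 in heme mice and from 9.31 to 12.57 in controls. With the mean of the 5 markers as a covariate, 21 of the 84 members were called higher, 2 were called lower and the median change was 0.15. The median standard error of the members was 0.0825 with the covariate and 0.0555 without it, and over all tested genes 19.1% were called higher with it. With the covariate Ndufb6 was at 0.69, Ndufaf4 at 1.04, Atp5k at 0.37, Cycs at 0.39, Ndufa1 at -0.23 and Cox7a2l at -0.46, all of them called. Ndufaf6 was at 0.15 (limma adjusted p = 0.605), Ndufs1 at 0.21 (0.0816), Sdhd at 0.22 (0.0577), Sdhc at 0.19 (0.165), Uqcr10 at 0.29 (0.0558) and Cox7a1 at 0.29 (0.0673), none of them called. Goblet cell markers were called lower in 5 of 7 tested and enteroendocrine markers in 4 of 6. The log2 of their summed signals ran from 16.49 to 16.68 in heme mice against 16.68 to 16.81 in controls for goblet cells, and from 12.01 to 12.34 against 12.71 to 13.47 for enteroendocrine cells. Among 8 absorptive colonocyte markers 3 were called higher and 2 lower. Without the covariate, 27.2% of all tested genes were called higher and 26.4% lower, so the absorptive counts are near what all genes gave. The part of these other cell types in the members' change was not tested.

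**Figure D4:**
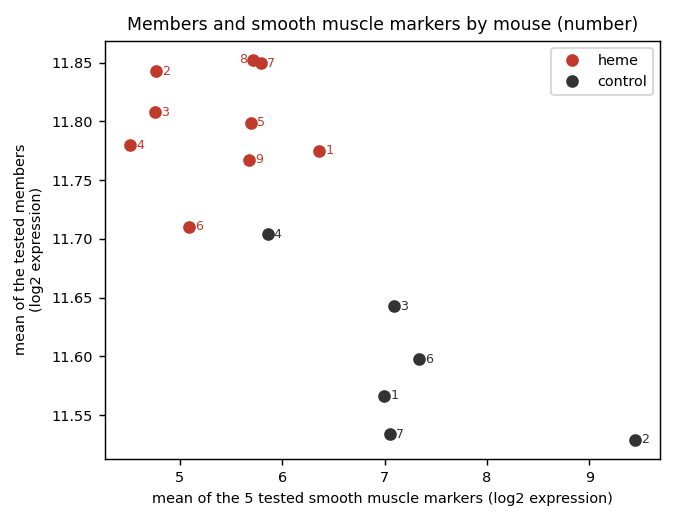
Each point is 1 mouse with its number, the mean of the 5 tested smooth muscle markers on the horizontal axis and the mean of the 84 tested members on the vertical axis, both in log2 expression. Heme mice lie at the upper left, between 4.52 and 6.36 on the marker axis, and controls at the lower right between 5.86 and 9.45. Control mouse 4 is the control nearest to the heme mice on both axes.

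Genes that work beside the chain were counted in the same fit, by lists that are given for comparison. Over all tested genes in that fit 27.2% were called higher and 26.4% lower. Assembly factors outside the symbol rule were called higher in 27 of 39 tested and lower in 0, with a median change of 0.26. The largest rise was that of Foxred1, a complex I assembly factor, at 0.71 ± 0.13 (limma adjusted p = 0.000304). In the list of electron carriers and ubiquinone synthesis 13 of 19 were called higher and 2 lower, with a median of 0.28. Coq3, a methyltransferase of ubiquinone synthesis, was higher by 1.07 ± 0.13, and the kinase-like Coq8a was lower with a change of -1.04 ± 0.15. Mitochondrial import and cristae genes were called higher in 20 of 24 and lower in 0 (median 0.32), led by the outer membrane channel Tomm40 at 0.84 ± 0.08. Mitochondrial ribosomal proteins, which translate the subunits encoded in mitochondrial DNA, were called higher in 63 of 76 and lower in 1 (median 0.34). Mrpl54 was at 0.84 ± 0.08 and Mrpl24, the one called lower, at -0.30 ± 0.05.

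Regulators of mitochondrial biogenesis were mostly not called, with 2 of 18 tested higher, 3 lower and a median of 0.01. Ppargc1a encodes PGC-1alpha, a coactivator known for raising the transcription of respiratory chain genes in muscle and brown fat. It ranged from 8.12 to 8.59 with a median of 8.27 in heme mice, against 9.58 to 10.25 with a median of 9.73 in controls. All 9 heme mice lay far below all controls. Ppargc1a was lower with a change of -1.51 ± 0.11 (0.351-fold, limma adjusted p = 5.21e-08). The mitochondrial elongation factor Tefm was higher by 0.53 ± 0.09 (limma adjusted p = 0.000198). Polrmt, the mitochondrial RNA polymerase, was called at 0.35, and Polg2 and Tfb2m were called at -0.61 and -0.17. Nrf1, the gene of the factor whose letters were searched above, was at -0.08 ± 0.09, Esrra at 0.02 ± 0.06 and Tfam at 0.06 ± 0.06, none of them called.

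Among nucleotide, porin and creatine kinase genes 5 of 8 were called higher and 0 lower, with a median of 0.12. Ckmt2, the mitochondrial creatine kinase of muscle, was at 8.41 ± 0.21 in heme mice and 5.04 ± 0.59 in controls, a change of 3.37 ± 0.20 (limma adjusted p = 7.36e-09). Among genes of mitophagy, fission and fusion 3 of 8 were called higher and 1 lower, with a median of 0.08. In so short a list these counts are near the shares over all tested genes, 27.2% higher and 26.4% lower. Bnip3, a mitophagy receptor, was at 0.72 ± 0.17 and the kinase Pink1 at -0.48 ± 0.12.

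**Figure D5:**
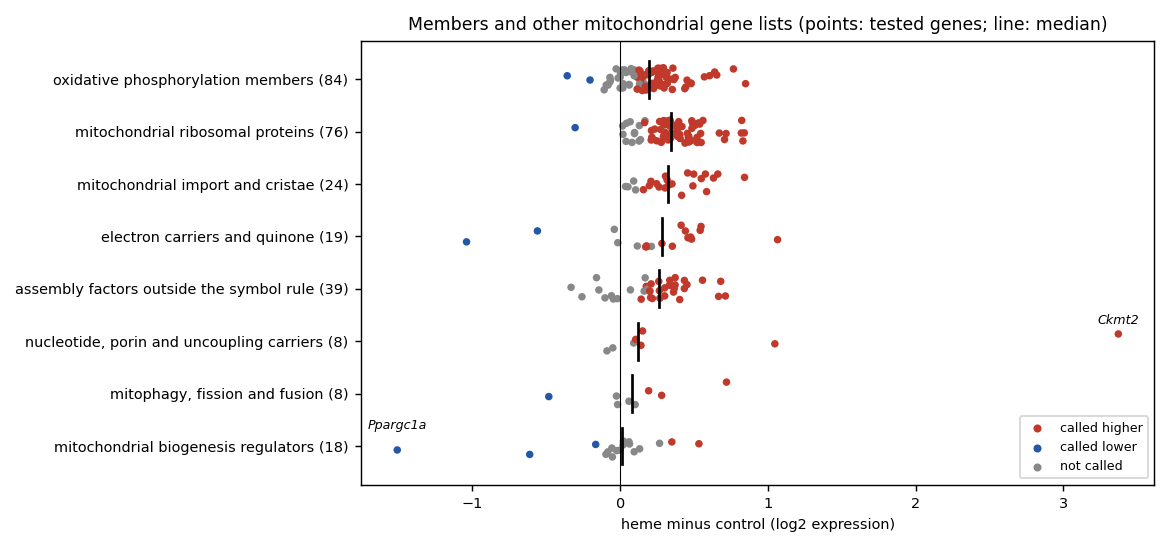
Each point is 1 tested gene, with its heme minus control difference on the log2 scale on the horizontal axis, the 84 members in the top row and 7 other mitochondrial lists in the rows under it, and a line at each median. The medians run from 0.01 for the biogenesis regulators, where Ppargc1a lies at -1.51, to 0.34 for the mitochondrial ribosomal proteins, and that of the members is 0.19. Ckmt2 lies farthest right at 3.37.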

How the data were processed

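Expression was measured in colon scrapings of 9 heme-fed and 6 control mice, with 1 Affymetrix mouse array per animal. Per the submitters' processing notes, the authors used GCRMA 2.22.0, which corrects background, normalizes between arrays and summarises probes, and deposited log2 values for each probe set. No further step is given in the sources used here. Precision is limited by the number of arrays.

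Probe sets were named by the array annotation, and 932 probe sets with several symbols and 9211 not listed were left out of the gene comparison. The probe set with the highest mean stood for a gene, and genes whose signal passed 20 on 6 or more arrays were tested by limma 3.58.1 (lmFit and eBayes) in R 4.3.3, with Benjamini-Hochberg adjustment over 9257 genes. Single probe sets were adjusted in a fit of their own, over 15717. The procedure was also run on simulated data with independent noise and far fewer changed genes than were called here. Its outcome is not used as support.

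The members and all lists were chosen with earlier results of these data known. By rule, ranges over mice are given for the 2 members of each complex with the largest called rise and the 2 with the largest called fall, and for Cycs and the Sdh genes. For other lists the largest called rise and fall are named. Other genes named with values were chosen after their values were seen. Deviations of same-numbered heme and control mice correlated only weakly, from -0.195 to 0.196. No pairing was used, although such values cannot exclude one. Promoters are those of RefSeq for GRCm38.p6, where 75 of 91 members matched.

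Alternatives were a floor of 100 or none, averaging all probe sets of a gene, quantile normalization or median centring, array weights, robust variance with a trend, a block for the replicate number, the label number or a smooth muscle score as a covariate, leaving out mice that stood apart, and leaving out each mouse in turn. For promoters a shorter window was tried.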

Additional observations from a re-analysis of the deposited data

Results flagged for a closer look

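The 84 tested members and their mean in each diet group gave 170 groups of values. In these, 18 single values stood apart from the rest of their group by Dixon's criterion, which flags about 1 in 20 groups by chance. Heme mouse 6 was low for Atp5g1 (12.20, the other heme mice from 12.37) and Ndufb1 (4.54, the others from 4.83). Heme mouse 9 was low for Ndufv1 (11.40, the others from 11.68) and Cox7c (7.05, the others from 7.37) and high for Ndufb9 (13.11, the others up to 13.00). It was also low for Atp5c1 (12.88, the others from 13.19) and Atp5h (13.27, the others from 13.39) and high for Ndufa6 (11.95, the others up to 11.71). Heme mouse 4 was low for Cycs (13.38, the others from 13.58) and heme mouse 7 high for Cox6b2 (5.94, the others up to 5.34). Among controls, mouse 2 was low for Ndufaf2 (7.94, the others from 8.39), Ndufb5 (12.20, the others from 12.33) and Uqcrh (13.16, the others from 13.32) and high for Ndufaf4 (9.17, the others up to 8.70). Control mouse 4 was high for Atp5g2 (12.16, the others up to 11.95) and Ndufs7 (12.10, the others up to 11.94). Control mouse 7 was low for Cox6b1 (13.78, the others from 13.89) and Atp5e (11.95, the others from 12.05).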

How the results depend on the processing

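Of the 58 called members 23 kept their call in all 27 alternatives in which they were tested, Ndufb1 and Cox6b2 not being tested at a floor of 100, and 0 of the 58 changed sign. Members called higher numbered 49 with quantile normalization and 50 to 58 without 1 mouse, with medians of 0.175 to 0.21, against 56 and 0.19 as reported. Without control mouse 2 and heme mouse 6 they numbered 49, and without control mouse 4 as well 53. Of all tested genes 28.2% were called higher with quantile normalization, and 2332 to 2557 of 9257 without 1 mouse. Without control mouse 2 and heme mouse 6, 2491 of the 9257 were called higher, and without control mouse 4 as well 2366. Leaving out 1 mouse ended the call of 7 members. Ndufaf8 lost it without any of 9 mice (0.114 to 0.153), Atp5a1 without any of 11 (0.104 to 0.116), Cox6b1 without any of 10 (0.093 to 0.119), Ndufaf1 without any of 7 (0.183 to 0.246) and Atp5mpl without any of 5 (0.133 to 0.151). Ndufa2 lost it without control mouse 2 or 7 (0.119 and 0.124) and Atp5o without control mouse 2 (0.268). With the smooth muscle covariate 21 members were called higher, namely 1 complex I core subunit (median 0.154), 9 other subunits, 3 assembly factors (median 0.189), 0 in complex II, 2 in complex III, 2 in complex IV, 3 in ATP synthase and Cycs. With it 14 of 39 assembly factors outside the rule were called higher and 3 lower, and 7 of 19 carrier and quinone genes higher and 1 lower. Higher calls with it numbered 2 of 8 nucleotide and porin genes and 41 of 76 mitochondrial ribosomal proteins. Of all tested genes 19.1% were called higher in that fit. With the replicate block 40 members were called higher (47.6%, median 0.194), against 22.3% of all tested genes in that fit, among them 4 assembly factors, 3 in complex IV and 7 in ATP synthase, beside 16 outside assembly factors and 2 nucleotide and porin genes. Only 1 of 6 controls correlated best with the heme mouse of its own number, which cannot exclude a pairing. Heme mice 5, 8 and 9 have no control of their number and add nothing to the difference in the block fit. Quantile normalization gave 5 members called lower, 2 of them other complex I subunits (median 0.136) and 2 in ATP synthase, and 3 nucleotide and porin genes called higher. Averaging the probe sets of a gene gave 1 ATP synthase member and 1 carrier and quinone gene called lower, and without the signal filter the complex IV median over 16 members was 0.0516. At a floor of 100, 1 outside assembly factor and 1 carrier and quinone gene were called lower and 1 biogenesis regulator higher. Outside assembly factors called lower numbered 2 with array weights, 3 without control mouse 2 and heme mouse 6, 1 without control mouse 4 as well, and 0 to 3 without 1 mouse, the 3 being without control mouse 2. Nucleotide and porin genes called higher numbered 3 to 5 without 1 mouse, with 3 without heme mouse 4, control mouse 3 or control mouse 7. Of the uncalled members 10, all near 0, changed sign under some alternative. Ndufv1 was at -0.0247 with quantile normalization, -0.0387 with the covariate and -0.000115 to 0.0765 without 1 mouse. Sdha was at 0.0192 with median centring, 0.00299 with array weights, 0.00422 with the block, 0.0104 without control mice 2 and 4 and heme mouse 6, and -0.0421 to 0.0204 without 1 mouse. Uqcrh was at -0.0218 with array weights, -0.00117 with the label number, -0.0307 without control mouse 2 and heme mouse 6, -0.0408 without control mouse 4 as well, -0.074 with the covariate and -0.0309 to 0.015 without 1 mouse. Atp5c1 was at 0.0326 with median centring, 0.0127 with quantile normalization, 0.0296 with array weights, 0.0216 with the block, 0.00404 with the label number, 0.024 without control mice 2 and 4 and heme mouse 6, and -0.0259 to 0.038 without 1 mouse. Cox8a was at -0.0396 with quantile normalization, -0.0243 with array weights, -0.0205 with the block, -0.00494 with the label number, -0.0491 with the covariate and -0.0327 to 0.0222 without 1 mouse. Ndufa13 was at -0.0466 with quantile normalization, -0.000493 with the block, -0.0403 with the covariate and -0.00279 to 0.0399 without 1 mouse. Ndufa7 was at -0.0257 with quantile normalization, -0.00215 with array weights, -0.00951 without control mice 2 and 4 and heme mouse 6 and -0.00346 with the covariate. Cox6c was at 0.0906 with its probe sets averaged, 0.00581 with median centring and 0.00158 with the block. Cox6a1 was at -0.0307 with the covariate and Ndufv3 at -0.0013 with quantile normalization. The cause of these changes was not tested. Genes near the floor have no reliable size of change, and the arrays do not measure protein or respiration.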

Other observations

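The array annotation names 1 subunit encoded in mitochondrial DNA by a single symbol, ND5, a proton-pumping subunit of the complex I membrane arm, which was chosen after its values were seen. ND5 ranged from 13.92 to 14.14 with a median of 13.98 in heme mice, against 13.96 to 14.20 with a median of 14.15 in controls. The groups overlapped, and 4 of 9 heme mice lay below all controls. The change was -0.14 ± 0.05 (0.910-fold, limma adjusted p = 0.0321), and it was called lower in 12 of the 27 alternatives, with changes of -0.17 to -0.06 and adjusted p from 0.00843 to 0.354.

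Probe sets shared by several symbols, which stood outside the gene comparison, included further Nduf genes. The probe set shared by Ndufa11 and Ndufa11b, a membrane-arm subunit of complex I, read 11.40 ± 0.06 in heme mice and 10.94 ± 0.11 in controls (SD, n = 9 and 6). That shared by Ndufs6 and Ndufs6b, a subunit that binds zinc in the matrix arm, read 11.96 ± 0.11 in heme mice and 11.81 ± 0.10 in controls. Those shared with a pseudogene read 11.84 ± 0.11 in heme mice and 11.44 ± 0.09 in controls for Ndufs5, and 11.15 ± 0.12 in heme mice and 10.73 ± 0.11 in controls for Ndufab1. These were not tested.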
